A study of Mus musculus with 12 samples.

Results

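The enzymes that make and break heme were examined as 9 of the 35976 gene symbols in the count table, namely Alas1, Alas2, Alad, Uros, Urod, Cpox, Ppox, Fech and Hmox1. They were taken by name as the listed heme pathway genes, and erythroid Alas2 was set against the enzymes that are made in all cells. All 9 passed the filter on low counts, which kept 15334 genes. The study sequenced polyadenylated RNA of CD45.2-positive cells sorted from C57BL/6 mouse bone marrow. Its 12 libraries form 4 groups of 3, and every group, controls included, carries the CD45.2 allele of the leukocyte surface protein CD45. The labels give normal marrow (WT) no further genotype. Among the leukemias, BN1 carries the fusion BRD9-NUTM1, MA9 carries MLL-AF9 and ME carries MLL-ENL. The sources used here do not give age, sex, the way each fusion was delivered, the host of the leukemia cells or the number of animals or clones behind the 3 libraries of a group. The p-values therefore measure the spread between these libraries, which may be technical.

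Heme is an iron-bearing ring that serves as the oxygen carrier of haemoglobin and as a cofactor of cytochromes, catalases and myeloperoxidase. Its synthesis starts in mitochondria with 5-aminolevulinate synthase, the rate-limiting enzyme, continues in the cytosol with enzymes that include Alad, Uros and Urod, and ends in mitochondria with Cpox, Ppox and Fech, which inserts the iron. The first step has a pair of isozymes: Alas2 is made in red cell precursors under the factor Gata1, and Alas1 is made in all nucleated cells and is repressed by heme. Heme oxygenase, encoded by Hmox1 and Hmox2, opens the ring, and Hmox1 is known as a gene induced by heme and oxidative stress and as abundant in macrophages that take up red cells.

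The promoters of Alas2 and Alas1 are printed because the results turn on the opposite behaviour of these isozymes, and those of Cpox and of the downstream start of Uros because they are the other member promoters with a GATA word. Each run is the 250 bases before a RefSeq transcript start (build GRCm38.p6), read 5′ to 3′ on the strand of the gene. Capitals mark GATA words (AGATAA or AGATAG or TGATAA or TGATAG) and CACCC boxes (CCNCNCCC), searched on both strands. Overlapping matches run together. For Alas1 only the window of the upstream start is printed. That of its downstream start held CACCC boxes at positions -206 and -47 and no GATA word.
Alas2, chrX:150547167-150547416, plus strand: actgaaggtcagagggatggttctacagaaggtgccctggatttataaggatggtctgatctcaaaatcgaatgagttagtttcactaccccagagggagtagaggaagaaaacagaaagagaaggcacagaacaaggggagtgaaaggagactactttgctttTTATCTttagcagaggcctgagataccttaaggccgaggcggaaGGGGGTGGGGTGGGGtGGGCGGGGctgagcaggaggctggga
Alas1, chr9:106247955-106248204, minus strand: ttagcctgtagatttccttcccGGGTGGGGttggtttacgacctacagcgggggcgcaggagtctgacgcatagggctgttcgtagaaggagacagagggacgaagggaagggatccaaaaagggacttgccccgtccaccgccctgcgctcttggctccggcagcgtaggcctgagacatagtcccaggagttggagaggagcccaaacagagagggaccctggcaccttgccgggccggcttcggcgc
Cpox, chr16:58669958-58670207, plus strand: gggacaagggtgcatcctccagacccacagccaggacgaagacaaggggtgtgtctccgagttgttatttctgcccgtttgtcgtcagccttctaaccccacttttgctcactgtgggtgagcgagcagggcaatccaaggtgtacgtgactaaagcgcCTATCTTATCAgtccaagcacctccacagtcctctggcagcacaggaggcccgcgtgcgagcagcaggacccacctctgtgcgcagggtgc
Uros, downstream start, chr7:133702501-133702750, minus strand: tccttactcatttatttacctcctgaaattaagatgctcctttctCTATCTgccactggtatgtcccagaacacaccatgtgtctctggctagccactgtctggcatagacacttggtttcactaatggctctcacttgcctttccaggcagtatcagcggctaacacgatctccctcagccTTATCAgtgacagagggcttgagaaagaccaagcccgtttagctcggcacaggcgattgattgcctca
The Alas2 promoter held 1 GATA word, at position -86 from the start, and 4 overlapping or adjacent CACCC boxes from position -42 to -26. The Cpox promoter held 2 overlapping GATA words at positions -91 and -86, and the Uros window held 2, at positions -205 and -68. No GATA word was found in the windows of Alas1, Alad, Urod, Ppox or the upstream Uros start, whereas 26.5% of 32851 mouse promoters of the same length held one. CACCC boxes were found in windows of Alas1, Alad and the upstream start of Uros as well, and in 45.9% of all promoters. Ppox held 4 CCAAT words, which 33.8% of promoters have at least once. These matches describe letters in a window and do not show binding.

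Library totals ran from 18292636 to 25732049 counts. Levels are CPM, the counts of a gene relative to the TMM-scaled library size, given as mean ± SD over the 3 libraries of a group. Fold changes are log2 estimates ± approximate SE from one edgeR quasi-likelihood fit over all libraries, and a gene is called where its Benjamini-Hochberg adjusted p over the 15334 genes is under 0.05. Ptprc, the gene of CD45, was present in every library, at 317 to 1087 CPM. ME replicate 3 stood apart, with Lars2 at 3508 CPM against 136 and 139.9 CPM in the other ME libraries. Leaving that library out moved no fold change of a heme enzyme gene by more than 0.114 (log2) and changed none of the 27 calls that involve ME. MA9 libraries held transcripts of the Y-linked genes Ddx3y, Eif2s3y, Kdm5d and Uty (149 to 165 CPM in sum) and less Xist (323.5 to 373 CPM), while elsewhere the Y-linked sum was at most 0.629 CPM and Xist stood at 755 to 981 CPM. The part of this difference in the level of the X-linked Alas2 was not tested.

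Alas2 was the member with the widest range. It lies on the X chromosome from 150547375 to 150570638 (GRCm38, a protein-coding gene). The WT libraries stood at 385, 427 and 451 CPM. The BN1 libraries stood at 0.658, 0.945 and 0.804 CPM, the MA9 libraries at 0.754, 1.25 and 0.534, and the ME libraries at 0.580, 0.635 and 0.778. All 9 leukemia libraries thus lay below all 3 WT libraries, and the leukemia groups overlapped one another. Its log2 fold change was -9.03 ± 0.11 (BN1), -8.92 ± 0.11 (MA9) and -9.31 ± 0.12 (ME), a fall of 523-fold, 484-fold and 633-fold (edgeR adjusted p = 1.1e-29, 1.7e-29 and 1.4e-29). What was left of it came to 58 counts over the BN1 libraries, 55 over MA9 and 40 over ME, which put the pooled level at 0.606 to 1.03 CPM, 0.651 to 1.12 CPM and 0.471 to 0.897 CPM (exact 95% Poisson intervals, counting error only). Of the Alas2 exon bases, 15.3% are shared with exons of Apex2, a DNA repair nuclease gene on the opposite strand, which stood at 9.53 ± 0.715 CPM (WT), 13.5 ± 1.93 (BN1), 10.6 ± 0.798 (MA9) and 11.2 ± 0.521 (ME). The libraries were made with a stranded kit, but the sources used here do not say whether the counting used strand, and the part of Apex2 reads in the remaining Alas2 counts was not tested.

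Alas1, the isozyme of all cells (chromosome 9, from 106233455 to 106248654), moved the opposite way. Its WT libraries stood at 126, 132 and 118 CPM, against 541, 528 and 542 in BN1, 419, 396.5 and 410.3 in MA9, and 483, 484 and 496 in ME. No 2 of the 4 groups overlapped. Alas1 rose by 2.10 ± 0.05 (log2, BN1), 1.71 ± 0.05 (MA9) and 1.96 ± 0.05 (ME), which is 4.29-fold, 3.26-fold and 3.90-fold (edgeR adjusted p = 8e-25, 8e-23 and 4.3e-24). It was the only one of the 9 members called higher against WT in each of the 3 leukemias. Of its exon bases, 11.7% are shared with 4930500F10Rik on the opposite strand, whose part in the Alas1 counts was not tested. Among all genes tested, 13.6%, 14.9% and 13.9% were called and at least 2-fold higher in BN1, MA9 and ME.

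**Figure D1:**
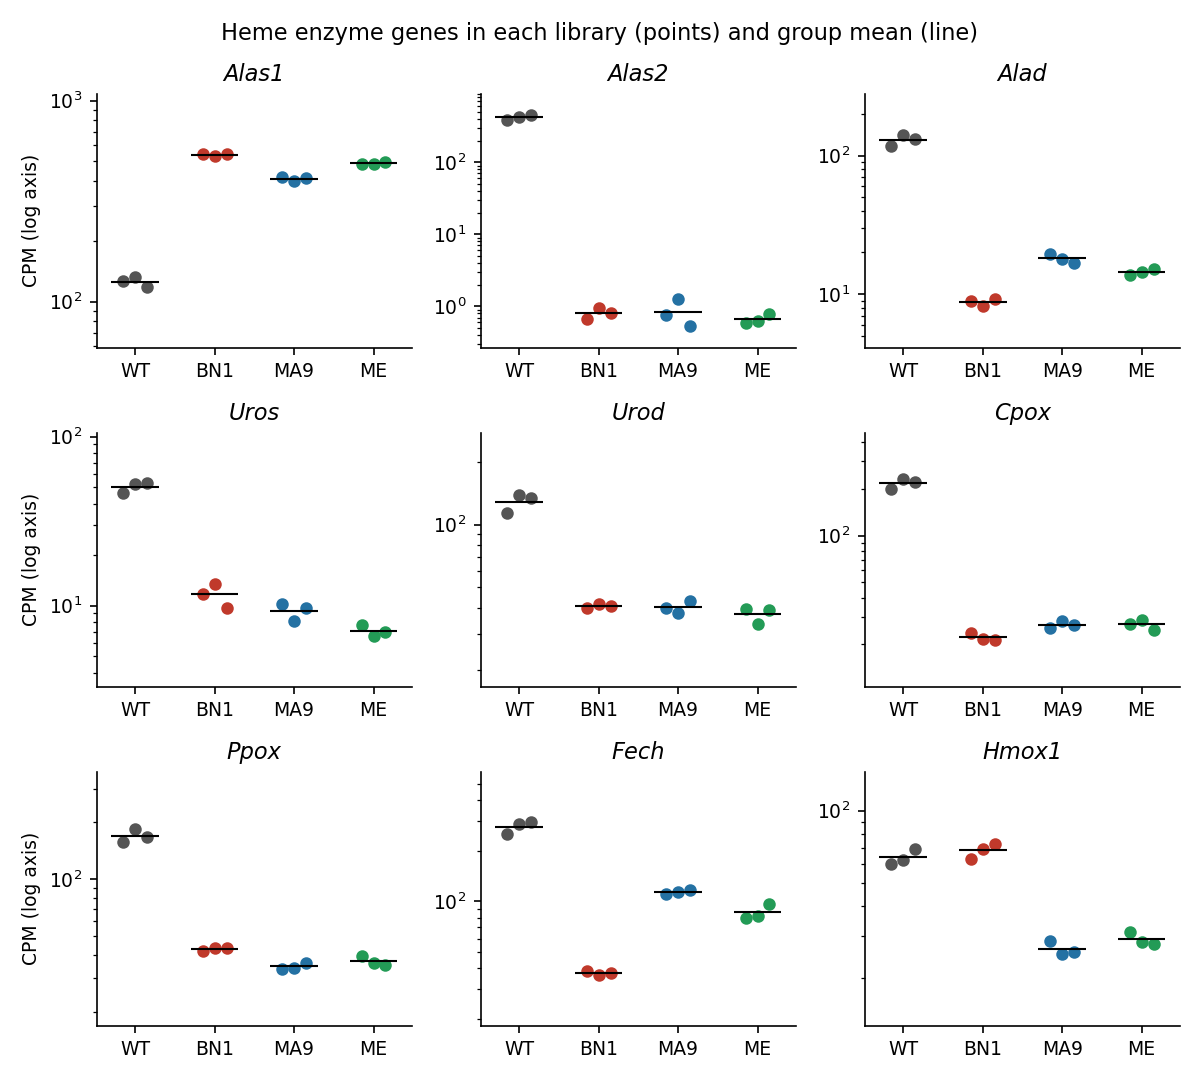
Level of each heme enzyme gene in CPM (log axis, a separate range for each panel) in the 12 libraries (points) with the group mean (line). Alas1 sits between 396.5 and 542 CPM in the leukemias against 118 to 132 in WT, Alas2 falls from 385 or more to 1.25 or less, and Hmox1 in BN1 overlaps WT.

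The isozymes were then compared within each library, which removes the scaling of the library. The log2 ratio of Alas2 to Alas1 (CPM plus 0.5) was 1.61, 1.69 and 1.93 in the WT libraries. It lay between -8.87 and -8.52 in BN1, between -8.63 and -7.83 in MA9 and between -8.81 and -8.60 in ME. The shift from WT was -10.44 in BN1, -10.03 in MA9 and -10.46 in ME, with no overlap, and each exact two-sided permutation test of 3 against 3 libraries gave p = 0.1, the smallest this design allows (0.2 adjusted over 6 comparisons). BN1 and MA9 differed by -0.41 (exact permutation p = 0.2), BN1 and ME by 0.02 (exact permutation p = 0.9) and MA9 and ME by 0.43 (exact permutation p = 0.2). Levels of different genes were compared per kilobase of exon. On that scale Alas2 made up 86.7 ± 1.31% of the summed level of both isozymes in WT, against 0.290 ± 0.0553% (BN1), 0.404 ± 0.185% (MA9) and 0.264 ± 0.0364% (ME). The summed level itself was 238 ± 15.5 CPM per kilobase (WT), 136 ± 1.88 (BN1), 103.6 ± 2.66 (MA9) and 123.5 ± 1.91 (ME).

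The order of the synthesis enzymes by level also differed between WT and the leukemias. In WT, Alas2 had the highest level per kilobase (207 CPM per kilobase) and 31.8 ± 1.15% of the sum over the 8 synthesis genes, followed by Alad (15.7 ± 0.394%), Ppox (14.4 ± 0.598%) and Urod (13.3 ± 0.426%), while Alas1 held 4.88 ± 0.456% and Uros 3.27 ± 0.0513%. In the leukemias Alas1 came first, with 64.3 ± 0.589% in BN1, 53.7 ± 0.598% in MA9 and 60.4 ± 0.724% in ME. Urod and Ppox followed, at 12.97 ± 0.341% and 11.1 ± 0.285% in BN1, 14.0 ± 0.688% and 9.90 ± 0.334% in MA9, and 12.3 ± 0.930% and 9.95 ± 0.584% in ME. The ratio of both first-step genes together to the 6 later enzymes was 0.580 ± 0.0250 (WT), 1.81 ± 0.0436 (BN1), 1.17 ± 0.0284 (MA9) and 1.54 ± 0.0476 (ME). The groups did not overlap in this ratio. The place of Fech depends on its exon length, which is 7198 bases as the union of its exons and 1753 in its shortest protein-coding transcript. With the shortest transcripts, a choice made after seeing the data, Fech was the second gene in WT, MA9 and ME and the fourth in BN1. Alas2 in WT and Alas1 in the leukemias remained first under the union, the shortest and the longest transcripts.

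**Figure D2:**
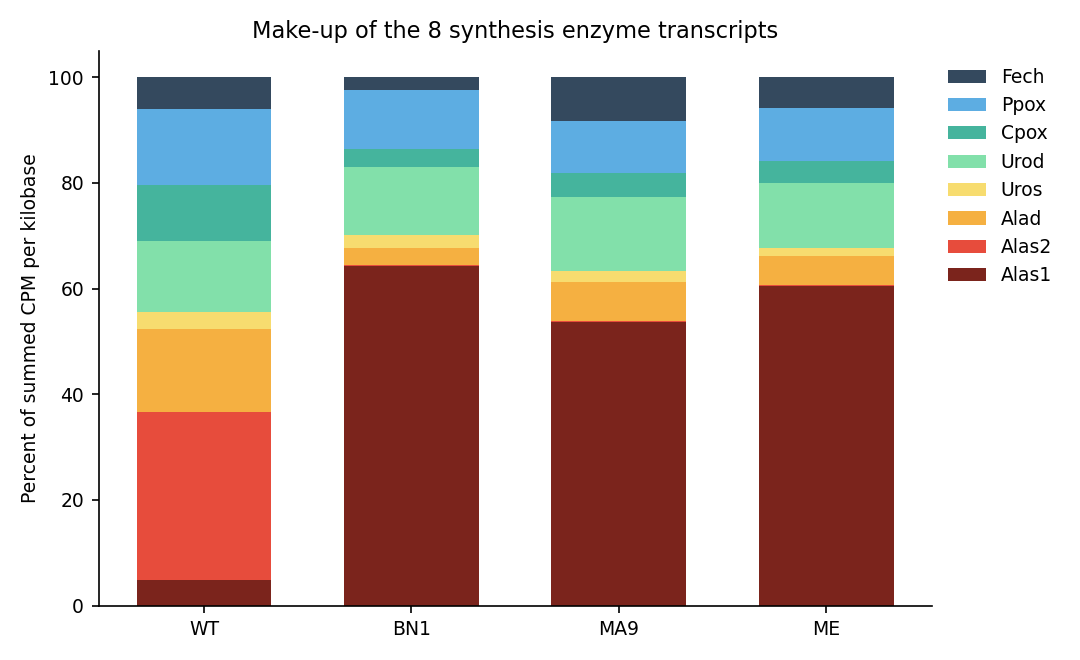
Share of each of the 8 synthesis genes in their summed level per kilobase of exon (percent, mean of 3 libraries, bars stacked to 100). Alas2 takes 31.8% in WT and under 1% in the leukemias, where Alas1 takes 53.7% to 64.3%.

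Against WT, 7 of the 9 members fell and 1 rose in BN1, beside 40.8% of all genes called lower, 38.4% called higher and 79.2% called in either direction. In MA9, 8 fell and 1 rose, beside 40.8%, 39.3% and 80.1% of all genes. In ME, 8 fell and 1 rose as well, beside 40.2%, 39.0% and 79.2%. The libraries of 8 members did not overlap those of WT in BN1, beside 80.3% of all genes, and those of all 9 members did not in MA9 and ME, beside 80.9% and 79.8%. Every member called lower fell at least 2-fold, a size that 24.1%, 23.8% and 23.9% of all genes reached in that direction in BN1, MA9 and ME. The median log2 fold change of the 9 genes was -2.12 in BN1, -2.29 in MA9 and -2.20 in ME, against -0.01 over all genes in each. These comparisons share the WT libraries. In sorted bulk cells, fewer cells of a type and less RNA per cell cannot be told apart.

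Among the cytosolic enzymes, Alad, which joins a pair of aminolevulinate molecules (chromosome 4, from 62509169 to 62519918), was lowest in BN1. Its libraries stood at 116.8, 140.3 and 132 CPM in WT, 8.93, 8.23 and 9.27 in BN1, 19.7, 17.9 and 16.9 in MA9, and 13.8, 14.5 and 15.2 in ME. The 4 groups did not overlap, in the order WT, MA9, ME, BN1. The log2 fold changes from WT were -3.87 ± 0.08 (BN1), -2.83 ± 0.07 (MA9) and -3.16 ± 0.08 (ME). Uros, which closes the ring of the uroporphyrinogen (chromosome 7, from 133686243 to 133710072), stood at 46.4, 52.2 and 52.9 CPM in WT. It stood at 11.8, 13.5 and 9.73 CPM in BN1, at 10.2, 8.15 and 9.72 in MA9 and at 7.64, 6.62 and 6.95 in ME. All leukemia libraries lay below WT, ME lay below both other leukemias, and BN1 and MA9 overlapped. Uros had log2 fold changes of -2.12 ± 0.10 (BN1), -2.44 ± 0.11 (MA9) and -2.84 ± 0.11 (ME). Urod, which removes carboxyl groups from the ring (chromosome 4, from 116989965 to 116994413), had close levels in the 3 leukemias. It went from 113, 138 and 134 CPM in WT to 39.9, 41.6 and 40.8 in BN1, 39.6, 37.8 and 42.9 in MA9, and 39.6, 33.4 and 38.8 in ME. Its log2 fold changes were -1.66 ± 0.07, -1.68 ± 0.07 and -1.79 ± 0.07 in BN1, MA9 and ME, and it had the smallest fall among the synthesis genes in BN1.

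Of the mitochondrial enzymes, Cpox, the coproporphyrinogen oxidase (chromosome 16, from 58670292 to 58717636), stood at 200.4, 229.5 and 219.7 CPM in WT. It stood at 23.6, 21.6 and 21.4 CPM in BN1, 25.5, 28.4 and 26.5 in MA9, and 27.0, 28.8 and 24.8 in ME. Cpox had log2 fold changes of -3.28 ± 0.07 (BN1), -3.01 ± 0.07 (MA9) and -3.01 ± 0.07 (ME), the BN1 libraries lying just below those of both MLL leukemias. Ppox, the next oxidase (chromosome 1, from 171275990 to 171281186), stood at 157, 185 and 167 CPM in WT, 41.6, 43.3 and 43.4 in BN1, 33.8, 34.1 and 36.1 in MA9, and 39.2, 36.1 and 35.4 in ME. Its log2 fold changes of -1.99 ± 0.06, -2.29 ± 0.06 and -2.20 ± 0.06 in BN1, MA9 and ME left it highest in BN1 among the leukemias. Fech, which inserts iron into the ring (chromosome 18, from 64452914 to 64490251), differed most between the leukemias in its fall. It stood at 253, 287 and 297 CPM in WT, 38.3, 36.4 and 37.4 in BN1, 110.5, 113 and 117.1 in MA9, and 79.1, 82.2 and 96.8 in ME. No 2 groups overlapped, in the order WT, MA9, ME, BN1, which is the order of Alad. Fech had log2 fold changes of -2.90 ± 0.07 (BN1), -1.29 ± 0.06 (MA9) and -1.70 ± 0.06 (ME). Adjusted p of these 6 genes in edgeR ran from 1.1e-25 to 1.1e-15 over the 3 comparisons with WT.

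**Figure D3:**
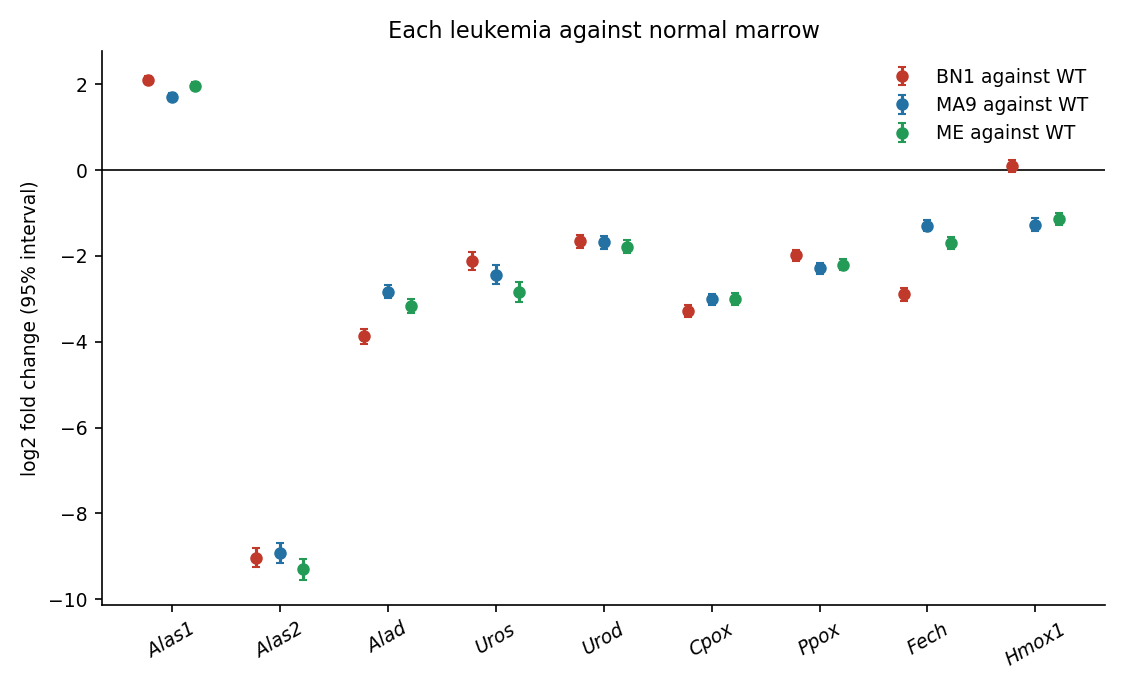
Log2 fold change of each heme enzyme gene in BN1, MA9 and ME against WT with its 95% interval from the edgeR fit. Alas1 lies above 0 and Alas2 near -9 in all 3 comparisons, the later enzymes lie between -3.87 and -1.29, and Hmox1 in BN1 lies at 0.09 with an interval that spans 0.

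Hmox1, the inducible heme oxygenase (chromosome 8, from 75093621 to 75100589), separated the leukemias in another way. Its WT libraries stood at 59.9, 62.4 and 69.4 CPM and its BN1 libraries at 62.8, 69.0 and 72.8, so that these groups overlapped. The MA9 libraries stood at 28.5, 25.3 and 25.8 CPM and the ME libraries at 31.0, 28.2 and 27.9, all below every WT and BN1 library. Hmox1 fell, with log2 fold changes of -1.27 ± 0.07 in MA9 and -1.14 ± 0.07 in ME (edgeR adjusted p = 3.9e-15 and 4.2e-14). In BN1 the estimate was 0.09 ± 0.07 with a 95% interval from -0.04 to 0.23 (edgeR adjusted p = 0.2).
Markers of macrophages, which are known to hold Hmox1, were read beside it. Their summed level over 12 genes was 179 to 189 CPM (WT), 149 to 157 (BN1), 197 to 207 (MA9) and 126.5 to 134 (ME). Adgre1 and Vcam1, which are not limited to mature macrophages, carried much of that sum, at 104 ± 1.44 and 90.4 ± 4.94 CPM in MA9 against 49.1 ± 1.18 and 33.9 ± 0.623 CPM in WT. Without them, a choice made after their values were seen, the other 10 markers summed to 96.4 to 105 CPM (WT), 37.6 to 38.6 (BN1), 6.27 to 7.79 (MA9) and 14.1 to 17.6 (ME). Siglec1 (24.8 ± 1.54 CPM, 18.2 ± 0.312 in WT) and Mrc1 (9.95 ± 1.27, 17.1 ± 1.03 in WT) made up most of this BN1 sum. Mertk (11.8 ± 0.956 CPM, 3.09 ± 0.439 in WT) made up most of the ME sum. Of the 11 macrophage markers tested, 8 fell and 3 rose in BN1, 9 fell and 2 rose in MA9, and 9 fell and 2 rose in ME. For the macrophage and monocyte markers, the shares over all genes tested are 40.8% lower and 38.4% higher in BN1. They are 40.8% and 39.3% in MA9, and 40.2% and 39.0% in ME. The counts of both lists were not tested against these shares. The 10 monocyte markers summed to 3121 to 3405 CPM (WT), 7262 to 7513 (BN1), 1714 to 1807 (MA9) and 2624 to 2726 (ME). Of them, 5 were called higher and 5 lower in BN1, and 2 higher and 8 lower in MA9 and in ME. F13a1 (3433 ± 76.5 CPM, 781 ± 66.7 in WT) and Mpeg1 (2467 ± 39.0, 1056 ± 31.9 in WT) made up most of the BN1 sum. In BN1 Cx3cr1 fell from 85.85 ± 6.36 CPM to 2.05 ± 0.637 and Fcgr1 from 21.7 ± 0.936 to 1.57 ± 0.313. Timd4 had no counts in BN1 and ME, and Spic had none in ME. The part of these cells in the level of Hmox1 was not tested.

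The leukemias were compared with each other to see which heme enzymes differ among them. Between BN1 and MA9, 4 members were higher and 3 lower in BN1, beside 32.8% and 34.9% of all genes and 67.7% in either direction. Between BN1 and ME the counts were again 4 and 3, beside 31.8%, 33.0% and 64.7%. Between MA9 and ME 3 were higher and 1 lower in MA9, beside 20.2%, 20.4% and 40.6%. Groups did not overlap for 6 members in the first pair (70.1% of all genes), 8 in the second (66.9%) and 4 in the third (48.6%). A called difference of at least 2-fold was seen between BN1 and MA9 for 2 members lower in BN1 and 1 higher, beside 12.8% and 11.0% of all genes. Between BN1 and ME it was seen for 1 lower and 1 higher, beside 10.8% and 11.3%, and between MA9 and ME for none, beside 5.33% and 7.11%. Fech and Hmox1 gave the largest differences. Fech was lower in BN1 than in MA9 and ME, with log2 differences of -1.60 ± 0.07 and -1.20 ± 0.07 (edgeR adjusted p = 1.6e-16 and 8.3e-14). Hmox1 was higher in BN1 than in MA9 by 1.36 ± 0.07 and than in ME by 1.23 ± 0.07 (edgeR adjusted p = 1.2e-15 and 1.2e-14). Alad was lower in BN1, with differences of -1.04 ± 0.09 to MA9 and -0.71 ± 0.09 to ME. Alas1 was higher in BN1 by 0.39 ± 0.04 and 0.14 ± 0.04, and Ppox by 0.30 ± 0.06 and 0.21 ± 0.06, against MA9 and ME. Cpox was lower in BN1, with differences of -0.27 ± 0.07 and -0.28 ± 0.07. Uros was higher in BN1 than in ME by 0.72 ± 0.12.

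Between the MLL leukemias, Fech was higher in MA9 than in ME by 0.40 ± 0.07 (log2) and Alad by 0.33 ± 0.09, and Alas1 was lower (-0.26 ± 0.04). Hmox1 (-0.13, 95% interval -0.29 to 0.03), Ppox (-0.09, interval -0.23 to 0.04), Urod (0.11, interval -0.05 to 0.27) and Cpox (-0.01, interval -0.15 to 0.14) did not pass the test between MA9 and ME. Urod did not pass between BN1 and MA9 (0.02, interval -0.13 to 0.18) or BN1 and ME (0.13, interval -0.03 to 0.29) either. Alas2 did not pass in any of the 3 comparisons, with intervals from -0.70 to 0.47 for BN1 against MA9, from -0.36 to 0.91 for BN1 against ME and from -0.26 to 1.03 for MA9 against ME. The leukemia libraries held 11 to 29 counts of Alas2 each. The calls of Uros rested on single libraries in 2 comparisons. Its difference between BN1 and MA9 (0.32 ± 0.12, edgeR adjusted p = 0.017) became 0.21 (adjusted p = 0.13) without BN1 replicate 2 and 0.23 (adjusted p = 0.1) without MA9 replicate 2. Its difference between MA9 and ME (0.40 ± 0.13, edgeR adjusted p = 0.013) became 0.33 (adjusted p = 0.065) without MA9 replicate 1 and 0.35 (adjusted p = 0.059) without ME replicate 2.

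**Figure D4:**
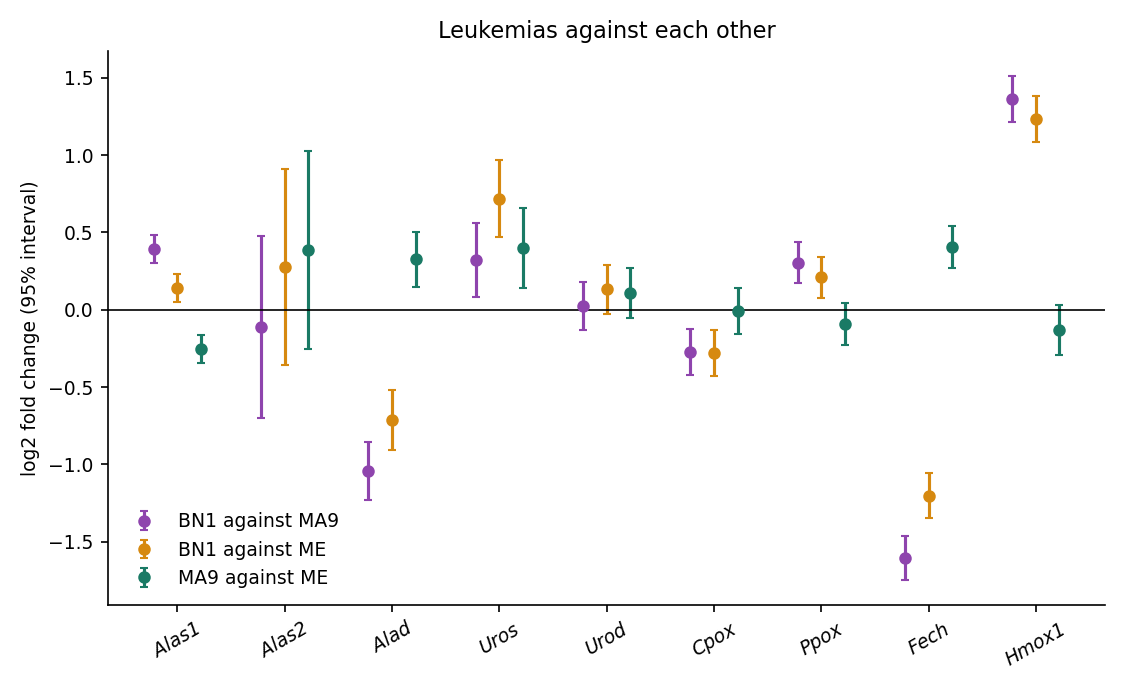
Log2 fold change of each heme enzyme gene between the leukemias with its 95% interval from the edgeR fit. Fech and Alad lie below 0 and Hmox1 above 0 in BN1 against both MLL leukemias, and the Alas2 intervals span 0 in all 3 comparisons.

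Alas2 was next set beside the markers of red cells and their precursors. Over all genes tested, 40.8%, 40.8% and 40.2% were called lower in BN1, MA9 and ME. All 22 erythroid markers, among them the haemoglobin genes Hba-a1, Hba-a2, Hbb-bs and Hbb-bt, fell in each leukemia. Their median log2 fold change, with genes without counts at the bound that 3 counts over the group give, was -11.16 in BN1, -10.47 in MA9 and -11.30 in ME. Their summed level was 35825 to 46015 CPM (WT), 23.6 to 24.5 (BN1), 30.3 to 37.5 (MA9) and 7.16 to 8.12 (ME). Without any count were Car1, Trim10 and Tspo2 in BN1, Epb42, Kel, Rhag, Car1 and Tspo2 in MA9, and 9 markers in ME, including Slc4a1. Alas2 kept 0.190% of its WT level in BN1, 0.201% in MA9 and 0.158% in ME, more than 19 of the 22 markers did in each leukemia, whose medians were 0.0381%, 0.0504% and 0.00533%. The 4 haemoglobin genes summed to 18.2 to 19.8 CPM (BN1), 25.2 to 31.4 (MA9) and 1.86 to 2.13 (ME). Alas2 per 1000 CPM of haemoglobin transcripts was 11.4 ± 0.794 (WT), 41.9 ± 5.86 (BN1), 30.4 ± 17.1 (MA9) and 338 ± 63.7 (ME). The ME libraries thus had the lowest haemoglobin levels at an Alas2 level that overlapped that of the other leukemias. The leukemia shares and ratios of Alas2 rest on 11 to 29 counts per library, in which the part of Apex2 reads was not tested. The part of red cell precursors in the falls of Alad, Uros, Urod, Cpox, Ppox and Fech was not tested.

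**Figure D5:**
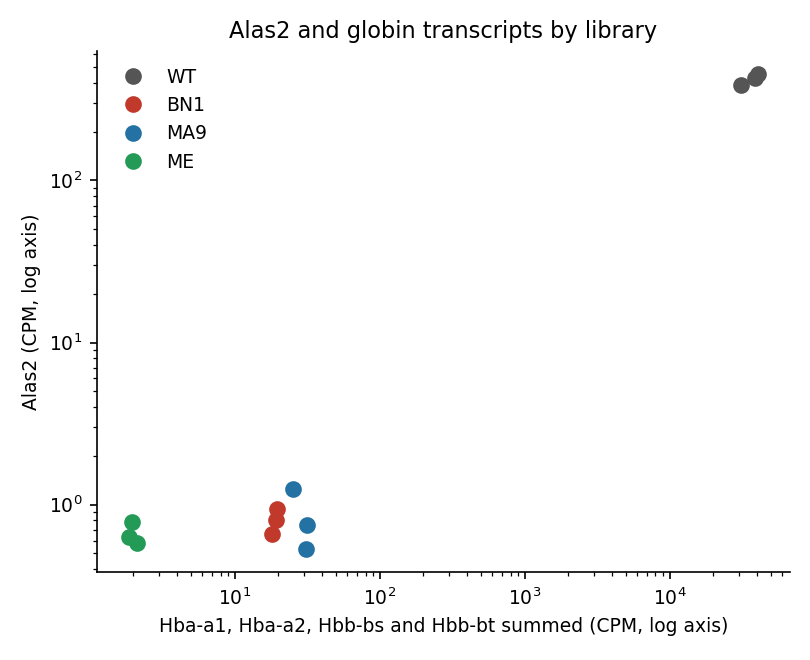
Alas2 against the summed haemoglobin transcripts (both in CPM, log axes) in each library. WT libraries lie at 31217 CPM of haemoglobin or more, BN1 and MA9 between 18.2 and 31.4, and ME at 1.86 to 2.13, while Alas2 overlaps between the leukemias.

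The remaining genes of heme synthesis and transport were read next. For this and the following lists, the shares over all genes tested are 40.8% lower and 38.4% higher in BN1, 40.8% and 39.3% in MA9, and 40.2% and 39.0% in ME. Of 15 such genes, 11 fell and 1 rose in BN1, 10 fell and 2 rose in MA9, and 13 fell and 1 rose in ME, with median log2 fold changes of -1.09, -1.23 and -1.28. The mitochondrial iron importer Slc25a37 (mitoferrin) fell from 639 ± 19.5 CPM to 102 ± 5.75 (BN1), 209 ± 0.329 (MA9) and 174 ± 6.04 (ME), and the mitochondrial transporter Abcb10 from 185 ± 8.56 to 25.7 ± 0.696, 57.9 ± 2.95 and 41.3 ± 1.27. Both had the order of Fech and Alad, with BN1 lowest and MA9 highest among the leukemias, and differed in each pair of leukemias (edgeR adjusted p at most 3.5e-05). Abcg2, a porphyrin exporter, fell most in ME, from 35.5 ± 3.39 to 1.49 ± 0.176 CPM.

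Of 8 genes of heme breakdown and uptake tested, 6 rose and 2 fell in BN1, 4 rose and 3 fell in MA9, and 6 rose and 2 fell in ME, while Mfsd7c and Hpx were too low to test. The shares in MA9 lie near those of all genes. Hmox2, the constitutive heme oxygenase, rose in all 3 leukemias, from 43.9 ± 1.86 CPM to 79.9 ± 2.36 (BN1), 69.3 ± 3.23 (MA9) and 65.1 ± 4.52 (ME). The biliverdin reductases split, with Blvra rising from 19.1 ± 3.05 CPM to 44.1 ± 2.49, 32.4 ± 1.42 and 37.2 ± 0.618, and Blvrb, abundant in red cells, falling from 140.5 ± 15.8 to 25.3 ± 1.68, 14.4 ± 2.59 and 12.3 ± 0.955 in BN1, MA9 and ME. Slc46a1, a folate transporter that was first described as a heme carrier, rose from 0.697 ± 0.165 CPM to 10.6 ± 0.901, 9.42 ± 0.946 and 10.5 ± 1.24. Slc48a1, which moves heme out of lysosomes, rose most in BN1, to 268 ± 5.28 CPM from 95.8 ± 1.52. Cd163, the haemoglobin scavenger receptor of macrophages, rose in BN1, to 36.9 ± 2.37 CPM from 14.8 ± 0.664, and fell in MA9 and ME, to 7.03 ± 0.708 and 6.41 ± 0.762. Hmox1, Cd163 and Slc48a1 were each higher in BN1 than in both MLL leukemias.

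Among 11 genes of iron handling, 6 fell and 4 rose in BN1, 7 fell and 3 rose in MA9, and 6 fell and 4 rose in ME. These counts were not tested against the shares of all genes, and the shares that rose in BN1 and in ME lie near those of all genes. Slc40a1, the iron exporter ferroportin, fell from 140.1 ± 9.56 CPM to 3.10 ± 0.447 (BN1), 29.2 ± 1.97 (MA9) and 23.6 ± 4.32 (ME). The transferrin receptor Tfrc fell from 357 ± 6.36 CPM to 131 ± 13.9, 102.7 ± 5.41 and 86.3 ± 12.3, and the ferritin heavy chain Fth1 from 924 ± 55.8 to 408 ± 9.51, 379.5 ± 3.70 and 427 ± 3.10. Ireb2, an iron-sensing RNA-binding protein, rose in BN1, from 100.8 ± 7.33 to 281 ± 15.8 CPM.

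Regulators of these genes were read from another list of 16. In BN1 3 rose and 13 fell, and in MA9 and ME 5 rose and 11 fell. Gata1, the factor of red cell precursors that acts on Alas2, stood at 47.5 ± 5.95 CPM in WT and gave 3 counts over the BN1 libraries, 6 over MA9 and none over ME (at least 961-fold lower in ME). Tal1, its partner, gave no count in BN1 and ME (at least 2604-fold and 2176-fold lower) and 5 in MA9. Klf1, which binds CACCC boxes, fell from 93.7 ± 6.22 CPM to 0.823 ± 0.211, 1.01 ± 0.142 and 0.845 ± 0.167. Bounds rest on 3 counts over the group and cover counting error only. Bach1, a heme-sensing repressor of Hmox1, stood at 133 ± 4.36 CPM (WT), 81.9 ± 3.14 (BN1), 75.2 ± 2.25 (MA9) and 98.8 ± 7.91 (ME) and fell in each leukemia. Nfe2l2, which activates Hmox1 under oxidative stress, fell from 138.5 ± 2.84 CPM to 100.2 ± 1.64 (BN1), 55.4 ± 1.03 (MA9) and 71.7 ± 2.99 (ME), and was higher in BN1 than in MA9 (0.85 ± 0.05, log2) and ME (0.48 ± 0.05).

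Genes with the pattern most like that of 3 members were found by the root mean square difference of centred log2(CPM plus 0.5) levels over the 12 libraries, among genes with at least 5 CPM in the highest group. Those nearest to Alas2 were Hemgn (0.106), Trim10 (0.19), Ermap (0.193), Kel (0.219) and the B cell factor Pax5 (0.235), each at 0.2 CPM or less on average in every leukemia. At such levels the distance is set largely by the 0.5 added to each value, and it does not show folds of equal size. Trim10 was at least 3541-fold lower in BN1 and Kel at least 3021-fold lower in MA9, beyond the folds of Alas2. Nearest to Alas1 were Dtx4 (0.105), the interferon gamma receptor Ifngr1 (0.119), Rab7b (0.12), Dirc2 (0.12) and the chaperone Hyou1 (0.122), and Ifngr1 stood at 195 ± 5.84 CPM (WT), 774 ± 17.8 (BN1), 530.3 ± 11.4 (MA9) and 636 ± 32.9 (ME). Nearest to Hmox1 were the lysosomal gene regulator Tfe3 (0.074), Smurf1 (0.101), Ehd1 (0.112) and Capn2 (0.114). Tfe3 stood at 78.5 ± 1.93 CPM (WT), 84.9 ± 4.67 (BN1), 33.9 ± 2.57 (MA9) and 38.1 ± 2.87 (ME).

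Of the other marrow lineages, all 12 mature neutrophil markers and all 10 B cell markers fell in each leukemia. Neutrophil markers summed to 58076 to 61219.8 CPM (WT), 4692 to 4923 (BN1), 783 to 815 (MA9) and 465 to 514 (ME), and B cell markers to 1191 to 1343 CPM in WT and at most 21.4 in any leukemia library. T and NK cell markers summed to 338 to 360.1 CPM (WT), 141 to 147 (BN1), 23.0 to 26.9 (MA9) and 7.85 to 10.2 (ME). Nkg7, a gene of cytotoxic granules, made up nearly all of the BN1 sum, at 144 ± 3.05 CPM against 39.98 ± 4.30 in WT. The other 9 summed to 298 to 321 CPM in WT and at most 3.05 in any leukemia library, a split made after the values were seen. Of 10 such markers, 9 fell and 1 rose in BN1 and all 10 fell in MA9 and ME. The part of these lineages in the levels of the heme enzymes was not tested.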

How the data were processed

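Counts per gene symbol for 12 libraries (4 groups of 3) were deposited by the authors as raw read counts and used as given. Per the submitters' processing notes, the tools were HISAT2, featureCounts and DESeq2 and the build mm10. For versions, annotation and strand use nothing is given in the sources used here. Genes were filtered with filterByExpr, scaled with TMM (factors 0.928 to 1.051) and fitted with edgeR 4.0.16 in R 4.3.3, 1 mean per group, over 6 comparisons. Positions and exon lengths came from GENCODE M21, promoters from RefSeq (7 members matched). Alternatives were DESeq2 1.42.0, limma-voom (limma 3.58.1), other scaling and filters, fits of only the groups compared, a block for the replicate number and each library left out. Same-numbered libraries did not deviate together (correlations -0.118 to 0.112). No 2 libraries of a group agreed within sampling noise (chi-square per degree of freedom at least 1.97).

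The members and lists were chosen with earlier results of these data known. Genes named besides the members were, per list, comparison and direction, up to 4 called genes with the largest change at 5 CPM or more in the higher group, and the 5 genes most like Alas2, Alas1 and Hmox1. Apex2, 4930500F10Rik, Lars2, the sex-linked genes, Ptprc and the markers without counts were named for their position or role or after their values were seen. Some genes selected by this rule are not reported here. Exact permutation tests were two-sided.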

Additional observations from a re-analysis of the deposited data

Results flagged for a closer look

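The 3 heme enzyme genes Fech, Alad and Hmox1 differed at least 2-fold between leukemias in the direct comparison, so that their change from WT differed between these leukemias. Fech differed by -1.60 (log2) between BN1 and MA9 and by -1.20 between BN1 and ME, Alad by -1.04 between BN1 and MA9, and Hmox1 by 1.36 and 1.23 between BN1 and MA9 and BN1 and ME. In each case the 3 BN1 libraries lay apart from the 3 libraries of the other group.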

How the results depend on the processing

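The counts of heme enzyme genes called and of all genes called stayed within 1.5 times of the reported ones under every alternative and with each library left out. Fold changes of the 9 members against WT kept their direction and call throughout, Alas1 ranging from 1.65 to 2.14 (log2) and Alas2 from -9.41 to -8.68. Between leukemias, 5 alternatives ended a call, all of Uros; limma-voom was one (0.39, adjusted p = 0.05, MA9 against ME) and single libraries the others, as given above. For the other named genes, alternatives ended 17 calls in 3 comparisons of a gene with WT, which enter the list counts above, and 38 calls in 12 comparisons of a gene between leukemias. None of these calls is stated above for a named gene. Estimates that had not passed the test changed sign in 9 cases. Ranges in brackets here are over the main fit and all alternatives. Alas2 in BN1 against MA9 became 0.01 without BN1 replicate 1 and 0.32 without MA9 replicate 2 (-0.35 to 0.32). In MA9 against ME it became -0.04 without MA9 replicate 2 (-0.04 to 0.62). Urod in BN1 against MA9 became -0.01 with upper-quartile scaling and -0.01 without MA9 replicate 2 (-0.01 to 0.08). Cpox in MA9 against ME became 0.02 with upper-quartile scaling, and 0.03, 0.0 and 0.05 without MA9 replicate 1, MA9 replicate 3 and ME replicate 2 (-0.06 to 0.05). The log2 ratio of Alas2 to Alas1 in BN1 against ME became -0.07 with a pseudocount of 2 and ranged from -0.07 to 0.11 with each library left out. The cause was not tested. With the replicate block, 7 heme enzyme genes were lower and 1 higher in BN1 against WT, and no call of a member changed. The labels' numbers did not pair the libraries.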
